A study of Mus musculus with 27 samples.

Results

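The 10 genes studied here are used as markers of the resident macrophage of the liver, the Kupffer cell, without all being restricted to it. They are *Clec4f*, *Cd5l*, *Vsig4*, *Timd4*, *Marco*, *Adgre1*, *C1qa*, *C1qb*, *C1qc* and *Csf1r*. They were chosen by name as known markers, with earlier results of these data known, and matched by gene symbol. All 10 were found in each of the 4 deposited tables, among 17655 genes listed in all, and all 10 passed the filter on low counts in every comparison. Whole-liver RNA of 27 mice was sequenced, with 3 mice to each of 9 groups. Every mouse was homozygous for a floxed *Kdm5b* allele (*Kdm5b* fl/fl), had been fed a Western diet together with alcohol (WDA), and had received an AAV. Mice given AAV8-control are called WT, mice given AAV8-CMV-Cre, which acts in liver without restriction to a cell type, are called KO, and mice given AAV8-TBG-Cre, whose promoter is active in hepatocytes, are called HepKO. The WDA groups had 8 weeks of feeding and comprised WT mice of each sex, KO mice of each sex, and HepKO mice, all female. The resolution (Res) groups had 16 weeks of WDA by their labels and received the vector, then spent 4 weeks without alcohol. The paper describes a chow diet and plain water for resolution, so the Western diet ended too. The Res groups comprised WT and KO mice of both sexes. The labels state no ages and name a single control vector, without its promoter. The labels name the vector before the feeding in WDA groups and after it in Res groups. All WDA mice belong to experiment 11 and all Res mice to experiment 12. Stage, diet, feeding time, vector timing and experiment therefore cannot be told apart. Each library is 1 mouse, and the labels do not say whether mice shared a litter or cage.

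Kupffer cells line the liver sinusoids, where they are seeded before birth, renew themselves and filter the blood. Their survival depends on signals through the receptor encoded by *Csf1r*, and their identity on the endothelial cells, stellate cells and hepatocytes around them. When they are lost, monocytes from the blood can settle in their place and take on parts of the same programme, with some markers such as *Timd4* gained late. In fatty and scarred liver, monocyte-derived macrophages carrying *Trem2*, *Gpnmb* and *Spp1* gather near damaged tissue. In RNA from whole liver, fewer cells of a type and less RNA per cell cannot be told apart. Nor can RNA of a member from Kupffer cells be told apart from its RNA in other macrophages.

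The promoters of the members on which the stage comparison turns, *Marco*, *Vsig4*, *C1qb* and *C1qc*, are shown with that of *Clec4f*, the lectin gene most restricted to Kupffer cells. Each line gives the 250 bases before the start taken for each promoter on GRCm38.p6, read 5′ to 3′ on the strand of the gene. For *Marco*, *Vsig4*, *C1qb* and *Clec4f* this is the RefSeq start of the gene. The *C1qc* window reaches into the gene, whose RefSeq span ends at 136892936. Capitals mark GAGGAA, the purine box of the macrophage factor PU.1, or TTCCTC, the same letters on the other strand.
Marco, chr1:120505025-120505274, minus strand: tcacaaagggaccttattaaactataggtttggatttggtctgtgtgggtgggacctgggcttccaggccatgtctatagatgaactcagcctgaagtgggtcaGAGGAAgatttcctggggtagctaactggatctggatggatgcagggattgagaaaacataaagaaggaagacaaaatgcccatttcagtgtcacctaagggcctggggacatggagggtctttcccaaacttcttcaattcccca
Vsig4, chrX:96293439-96293688, minus strand: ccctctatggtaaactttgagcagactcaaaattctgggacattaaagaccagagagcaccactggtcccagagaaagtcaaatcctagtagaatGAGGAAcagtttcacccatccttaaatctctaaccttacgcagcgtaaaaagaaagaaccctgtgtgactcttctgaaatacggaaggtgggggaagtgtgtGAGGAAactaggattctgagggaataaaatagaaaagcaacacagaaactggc
C1qb, chr4:136886201-136886450, minus strand: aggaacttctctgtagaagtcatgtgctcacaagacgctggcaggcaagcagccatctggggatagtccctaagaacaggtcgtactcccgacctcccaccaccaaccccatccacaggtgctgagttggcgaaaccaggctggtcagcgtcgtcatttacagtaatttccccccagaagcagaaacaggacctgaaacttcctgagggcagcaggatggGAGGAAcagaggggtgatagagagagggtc
C1qc, chr4:136892915-136893164, minus strand: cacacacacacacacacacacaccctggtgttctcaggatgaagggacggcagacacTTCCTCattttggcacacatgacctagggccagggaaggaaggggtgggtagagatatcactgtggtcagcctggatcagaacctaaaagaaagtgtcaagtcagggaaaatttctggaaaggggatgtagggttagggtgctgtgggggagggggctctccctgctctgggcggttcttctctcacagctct
Clec4f, chr6:83656117-83656366, minus strand: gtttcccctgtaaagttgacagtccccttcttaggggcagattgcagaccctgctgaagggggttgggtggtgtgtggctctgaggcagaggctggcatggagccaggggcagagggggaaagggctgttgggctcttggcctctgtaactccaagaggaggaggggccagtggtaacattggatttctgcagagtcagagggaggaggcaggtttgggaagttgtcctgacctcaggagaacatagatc
The set of promoter sequences held 7 of the 10 members. Of the 7, 5 had the 6 letters on either strand in these 250 bases (*Cd5l*, *Vsig4*, *Marco*, *C1qb* and *C1qc*), against 23.3% of the 32851 promoters in the set. *Vsig4* had 2 copies, beginning 155 and 53 bases before the start, and *C1qb* had 1, beginning 30 bases before it. *Clec4f* and *Timd4* had none, which says only that these letters are not in these windows.

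Expected counts per library summed to between 14634602 and 19388251, with a median of 17944536, and the members took from 17 counts (*Timd4*) to 5912 counts (*Cd5l*) in a library. Hepatocyte markers were detected in every library. *Kdm5b* stood at 14.4 to 24.3 CPM (counts scaled to library size with TMM factors) in KO WDA females, which overlapped the 21.5 to 31.0 CPM of WT. It did not overlap between KO and WT in WDA males (20.3 to 21.8 against 23.7 to 24.6 CPM), Res females (10.6 to 13 against 16.6 to 17.8) or Res males (7.89 to 17.4 against 18.8 to 19.6), and HepKO females had 8.27 to 17.6 CPM. The library of mouse 5, labelled a KO Res male, held 4.94 CPM of *A1bg*, a transcript of female liver that did not exceed 0.503 CPM in any other male, and its 38.4 CPM of the Y-linked *Ddx3y* was the lowest of the males. Results that include this mouse were also computed without it.

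Compared per transcript length, in FPKM, the members spanned a wide range of levels. The highest medians over the 27 mice were those of *Cd5l*, a secreted scavenger protein also called AIM, at 86.6 FPKM, and of the complement chains *C1qc* at 81.7, *C1qb* at 63.6 and *C1qa* at 52.3 FPKM. *Clec4f* followed at 41.8 FPKM, then *Vsig4*, the complement receptor CRIg, at 31.9 FPKM and *Csf1r* at 20.1 FPKM. The lowest were *Adgre1*, which encodes F4/80, at 8.73 FPKM, the scavenger receptor *Marco* at 7.34 FPKM, and *Timd4*, a receptor for phosphatidylserine on dying cells, at 6.61 FPKM. On GRCm38.p6 the genes with the widest spread between mice lie at chr1:120474538-120505024 (*Marco*), chr11:46810786-46844333 (*Timd4*), chr17:57358581-57483529 (*Adgre1*) and chr6:83644542-83656116 (*Clec4f*), and *Cd5l* and *Vsig4* at chr3:87357881-87371074 and chrX:96247201-96293438. Within single livers this order was firm in places and loose in others. *C1qc* lay above *C1qb*, *C1qb* above *C1qa* and *Csf1r* above *Adgre1* in 27 of 27 mice, whereas *Cd5l* lay above *C1qc* in 15, *Clec4f* above *Vsig4* in 18, *Adgre1* above *Marco* in 14 and *Marco* above *Timd4* in 17 of 27. Those last pairs of neighbours do not differ beyond the spread between mice.

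The members also differed in how steady they were. *C1qa*, *C1qb* and *C1qc*, whose products assemble into the same C1q molecule and whose genes lie side by side on chromosome 4 (*C1qb* from 136880126, *C1qc* from 136889801, *C1qa* from 136895916 on GRCm38.p6), kept nearly constant proportions. The ratio of *C1qc* to *C1qa*, as FPKM, stayed between 1.34 and 1.72 over the 27 mice, and that of *C1qb* to *C1qa* between 1.06 and 1.46. From the lowest to the highest mouse the CPM of *C1qa* changed 2.41-fold, whereas *Clec4f* changed 5.70-fold, *Marco* 42.0-fold and *Timd4* 56.3-fold. Most of this spread was within groups: the SD of log2 CPM between mice of the same group was 0.39 for *C1qa*, 0.74 for *Clec4f*, 1.08 for *Marco* and 1.17 for *Timd4*.

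**Figure D1:**
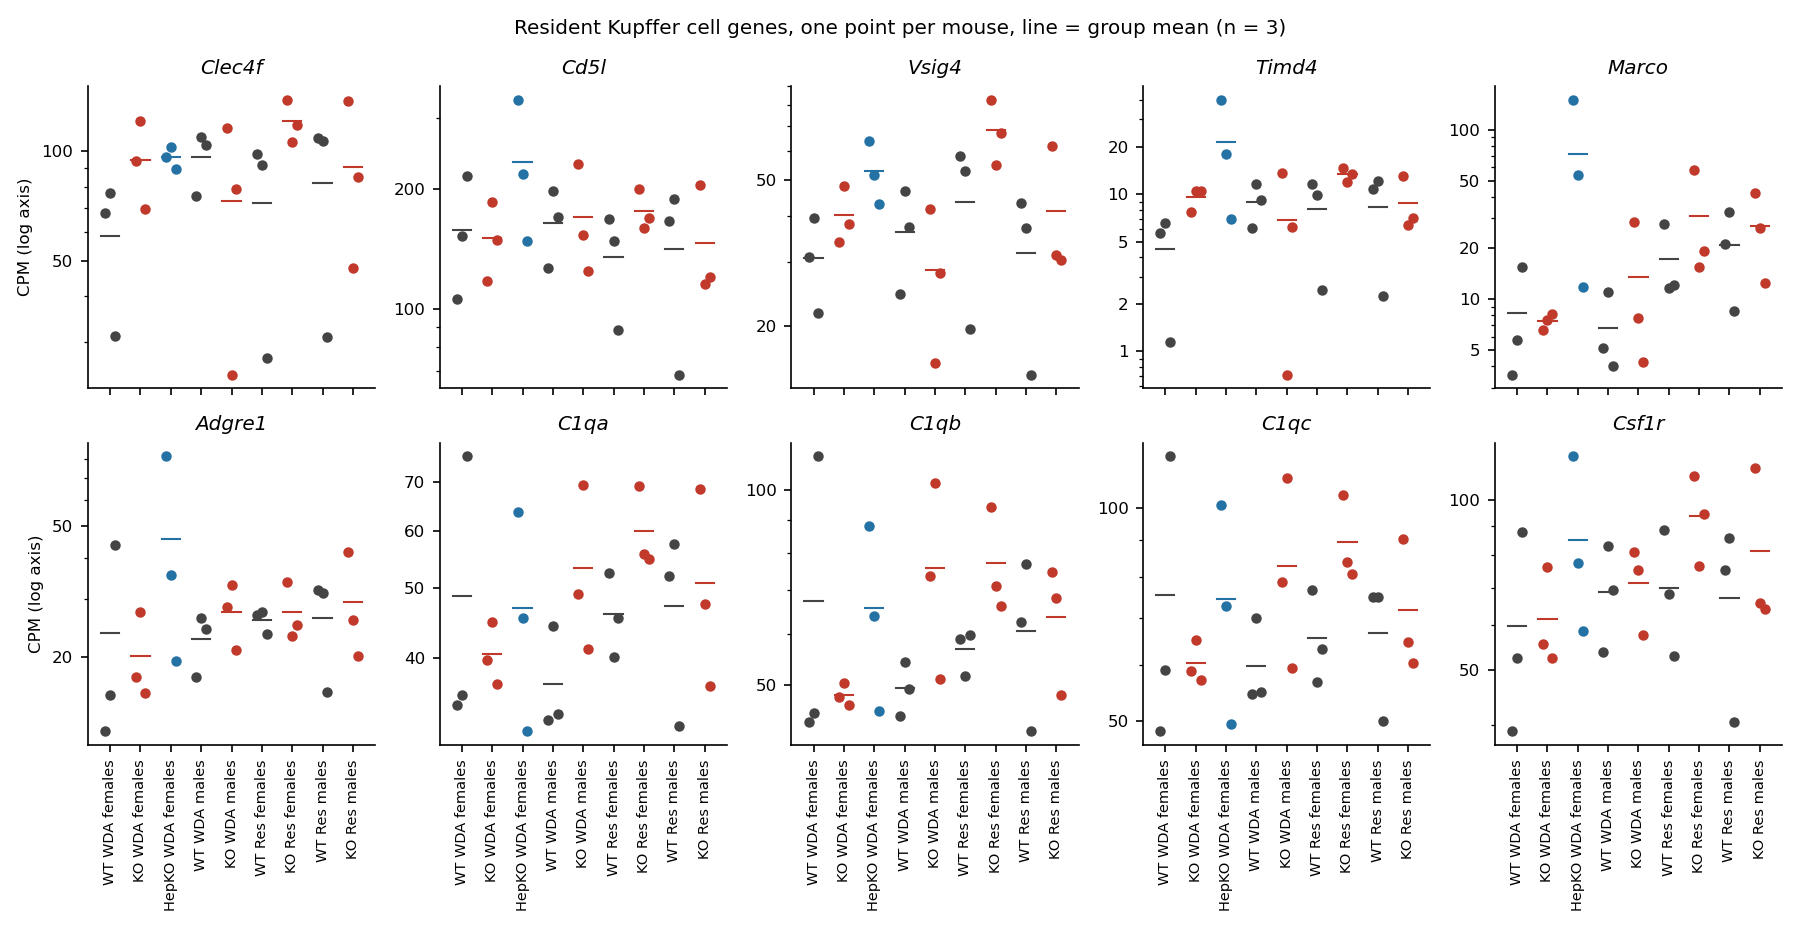
CPM (log axis) of the 10 members in each of the 27 mice, by group, with lines at the group means (n = 3). WT mice are grey, KO mice red and HepKO mice blue. Single mice fall far below their groupmates for *Clec4f*, *Vsig4* and *Timd4*, such as the KO WDA male at 24.3 CPM of *Clec4f*, while *C1qa* in the same mouse stands at 69.5 CPM.

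A total of 5 mice from 5 different groups carried little *Clec4f* beside their groupmates. Mouse 17 of the KO WDA males had 24.3 CPM, against 116 and 78.6 CPM in the other KO WDA males. Mouse 13 of the WT Res females had 27 CPM, against 98.2 and 91.7 CPM. Mouse 9 of the WT Res males had 30.9 CPM, against 109 and 106 CPM. Mouse 7 of the WT WDA females had 31.1 CPM, against 67.6 and 76.8 CPM. Mouse 5 of the KO Res males had 47.8 CPM, against 138 and 85.1 CPM, and the next mouse of all 27 stood at 67.6 CPM. These mice are described one by one, and no group was formed from them.

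In the same livers *Timd4* was also the lowest of its group, at 0.712 CPM in mouse 17, 1.15 in mouse 7, 2.27 in mouse 9, 2.46 in mouse 13 and 6.36 in mouse 5. *Vsig4* was the lowest of its group in 4 of these mice, at 14.8 CPM in mouse 9, 15.9 in mouse 17, 19.6 in mouse 13 and 21.8 in mouse 7, and stood at 31.2 CPM in mouse 5, just above the 30.4 CPM of a groupmate. The scavenger receptor *Cd163*, another Kupffer cell gene, was at 0.970 CPM in mouse 7, where its groupmates had 8.29 and 18.4 CPM, and at 1.01 CPM in mouse 17, where they had 17 and 12.1 CPM.

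The C1q chains did not follow. *C1qa* was the highest of its group in mouse 7, at 76.1 CPM against 34.3 and 35.4 CPM, and in mouse 17, at 69.5 CPM against 49.0 and 41.1 CPM. *Adgre1* was likewise the highest of its group in mouse 7, at 43.9 CPM, and in mouse 17, at 33.0 CPM. Of the 5 mice, mouse 9 alone had all 10 members at the bottom of its group, with 32.1 CPM of *C1qa* against 52.0 and 57.5 CPM. The ratio of *Clec4f* to *C1qa*, as FPKM, was 0.136 in mouse 17, 0.158 in mouse 7, 0.228 in mouse 13, 0.367 in mouse 9 and 0.392 in mouse 5, and its median over the 27 mice was 0.774.

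Markers of other cells moved with this split. The summed CPM of the 8 cholangiocyte markers was 126 in mouse 17, 105 in mouse 7, 78.9 in mouse 13, 65.6 in mouse 9 and 65.3 in mouse 5, and did not exceed 35.9 in any other mouse. The sum of the 12 scar-associated macrophage markers was 1990 CPM in mouse 17, 2306 in mouse 7, 995 in mouse 13, 819 in mouse 9 and 803 in mouse 5, against at most 781 elsewhere, and no marker of that list was at 0 in any library. *Trem2*, a lipid receptor of these macrophages, reached 27.3 CPM in mouse 7 and 23.9 CPM in mouse 17, and the chemokine receptor *Ccr2*, carried by recruited monocytes, reached 13.7 and 14 CPM. The summed sinusoidal endothelial markers lay between 272 and 306 CPM in the 5 mice and between 324 and 551 CPM in the others. The part of these cells in the split was not tested.

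**Figure D2:**
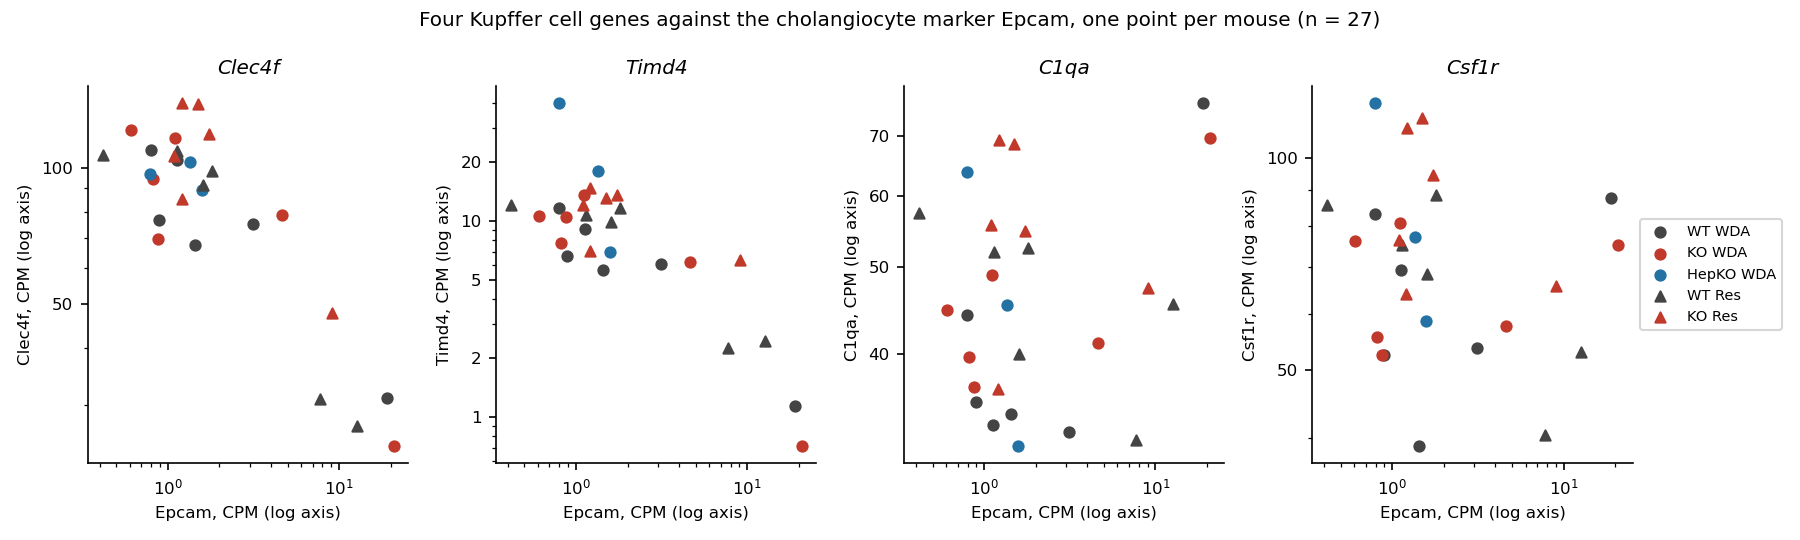
CPM of *Clec4f*, *Timd4*, *C1qa* and *Csf1r* (log axes) against CPM of the cholangiocyte marker *Epcam* (log axis), one point per mouse (n = 27), by vector (colour) and stage (circles WDA, triangles Res). The mice with *Epcam* at 7.75 CPM or more have the lowest *Clec4f*, at 24.3 to 47.8 CPM, while their *C1qa* spreads from 32.1 to 76.1 CPM.

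Over the 27 libraries the members therefore fell into sets that varied together. *Clec4f* followed *Timd4* with a Pearson r of 0.88 for log2 CPM (Spearman rho 0.85) and *Vsig4* with an r of 0.87 (rho 0.80), and showed an r of 0.02 with *C1qa* (rho 0.31). Without the pair of mice farthest from the median of *Clec4f* (mice 17 and 13), the values were 0.82, 0.82 and 0.23. Mice 7, 9 and 5, which also carried little *Clec4f*, remained in these values. After the group means were subtracted, *Cd5l* and *Csf1r* had an r of 0.95, *C1qa* and *Adgre1* 0.92, and *C1qa* and *Csf1r* 0.88. These are descriptions over libraries of whole liver from experiments 11 and 12, and they carry no p.

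Genes outside the 10 whose levels most resembled *Clec4f*, among 13524 genes, were *Fcna* (r = 0.93), which encodes ficolin A, *Cd163* (0.91), *Plbd1* (0.90), *Iqgap2* (0.90) and *Hhip* (0.89). After subtraction of group means their r ranged from 0.90 to 0.94. Without mice 17 and 13 the r of the levels ranged from 0.83 to 0.89. The rank correlation over all 27 mice was lower, from 0.51 (*Hhip*) to 0.82 (*Cd163*), so the likeness was less close by rank than by level. The genes most like *C1qa* were of another kind: *Itgb2* (r = 0.94), the shared chain of leukocyte integrins, *Sh3kbp1* (0.92), *Cybb* (0.92), the catalytic subunit of the phagocyte oxidase, *Laptm5* (0.92) and *Hcls1* (0.91). Their rank correlations were 0.90 to 0.93.

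The comparison of Res with WDA asks how the markers stand 4 weeks after alcohol and the Western diet were stopped. It is also a comparison of experiments that differ in feeding time and vector timing. In KO females 6 of the 10 members rose and 0 fell, by the quasi-likelihood test of edgeR at an adjusted p (Benjamini-Hochberg over all genes) under 0.05. *Marco* rose most, and all 3 C1q chains, *Vsig4* and *Csf1r* rose by 0.59 to 0.79 on the log2 scale, while *Timd4*, *Adgre1*, *Clec4f* and *Cd5l* did not pass the test. Which macrophages carried this RNA was not tested. Over all 12470 genes tested in this comparison, 20.4% were called, and 10.2% were called higher. With the vectors and sexes combined, 1 of the 10 members, *Marco*, was called, among 30.2% of genes called and 14% called higher.

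In KO females on WDA, *Marco* stood at 6.55, 7.55 and 8.15 CPM, and after resolution at 15.4, 19.3 and 57.5 CPM. The groups did not overlap, and mouse 2 of the Res group stood far above the others. The log2 fold change was 2.07 (SE 0.44, adjusted p = 0.012), and 1.24 without that mouse (adjusted p = 0.0066). *Marco* encodes a receptor for bacteria and particles.

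Of the C1q chains, *C1qa* stood at 36.8, 39.7 and 44.8 CPM on WDA and at 54.9, 55.6 and 69.3 CPM after resolution, for a log2 fold change of 0.59 (SE 0.13, adjusted p = 0.015). *C1qb* went from 46.6, 47.9 and 50.3 CPM to 66.2, 71.2 and 94.0 CPM, a log2 fold change of 0.70 (SE 0.14, adjusted p = 0.010). *C1qc* went from 57.1, 58.8 and 65.1 CPM to 80.7, 84.0 and 104 CPM, a log2 fold change of 0.59 (SE 0.13, adjusted p = 0.013). In all 3 chains the lowest Res mouse lay above the highest WDA mouse.

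*Vsig4*, which binds C3 fragments on particles in the blood, stood at 34.0, 37.9 and 48.3 CPM on WDA and at 55.0, 67.1 and 82.8 CPM after resolution, for a log2 fold change of 0.79 (SE 0.18, adjusted p = 0.015). *Csf1r* stood at 52.6, 55.7 and 76.3 CPM on WDA and at 76.3, 94.4 and 110 CPM after resolution, with a log2 fold change of 0.63 (SE 0.18, adjusted p = 0.033), and its groups met at 76.3 CPM to the digits shown. *Timd4* stood at 7.72, 10.5 and 10.6 CPM on WDA and at 12.1, 13.5 and 14.8 CPM after resolution, for a log2 fold change of 0.51 (SE 0.17, adjusted p = 0.054) that missed the threshold although the groups did not overlap. In all, 7 of the 10 members lay higher in Res without overlap, against 18.5% of genes tested. *Adgre1* (0.47, SE 0.22), *Clec4f* (0.37, SE 0.19) and *Cd5l* (0.24, SE 0.17) overlapped between the groups.

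None of the 6 calls (0) held in a fit that shared one estimate of the spread among all 9 groups, where the adjusted p of *Marco* was 0.10 and those of the others were 0.15 to 0.22, and 11.5% of genes were called. Without mouse 2 of the KO Res females the calls were *Marco*, *C1qb* and *C1qc*, 3 of the 10, and without mouse 2 of the KO WDA females they were 7, *Adgre1* being added. The call of *Csf1r* held in 2 of the 6 fits without 1 mouse, and its adjusted p reached 0.11 without mouse 2 of the KO Res females. Markers of other cells moved beside this result. In KO females the summed neutrophil markers were 5.53 to 12.1 CPM on WDA and 12.8 to 28.7 CPM after resolution, with 2 of 5 tested called higher and *Ly6g* at 0 in 2 mice of each group. The B cell markers were 3.86 to 6.31 and 7.53 to 12.2 CPM, with 2 of 5 tested called higher, and the monocyte markers 81.8 to 95.1 and 102 to 151 CPM, with 1 of 8 called higher (*Lyz2*). The 9 hepatocyte markers summed to 95888 to 117163 CPM on WDA and to 147313 to 173411 CPM after resolution, with *Alb* (0.74) and *Tat* (1.56) called higher and *Fabp1* (-0.66) lower. The stellate and matrix markers summed to 502 to 537 and 599 to 726 CPM, with 2 of 11 tested called higher, *Reln* (0.56) and *Ecm1* (0.43). The scar-associated macrophage markers summed to 633 to 670 CPM on WDA and to 505 to 558 CPM after resolution. Single genes of this list went both ways: 5 were called, with *Itgax* (2.04) and *Trem2* (1.85) higher and others, such as *Lpl* (-0.93), lower. Over all genes tested in this comparison 20.4% were called, and 10.2% were called higher. The part of all these cells in the result was not tested.

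In the other groups *Marco* was the member with the largest stage difference, without passing the test. In WT males it stood at 4.00, 5.11 and 11.0 CPM on WDA and at 8.55, 21.2 and 32.8 CPM after resolution, for a log2 fold change of 1.64 (SE 0.50, adjusted p = 0.070). Without mouse 9 of the WT Res males, *Marco* (2.02), *C1qa* (0.59) and *C1qb* (0.51) were called in WT males, where 0 members were called with it and 11% of genes were. In WT females *Marco* stood at 3.58, 5.73 and 15.5 CPM on WDA and at 11.6, 12.1 and 27.7 CPM after resolution, with a log2 fold change of 1.02 (SE 0.60) that was 0.50 without mouse 1 of the Res group and 1.86 without mouse 7 of the WDA group. In KO males it stood at 4.26, 7.75 and 28.4 CPM on WDA and at 12.5, 26.2 and 42.5 CPM after resolution, with a log2 fold change of 0.998 (SE 0.70) that was 0.51 without mouse 11 of the Res group and 2.17 without mouse 16 of the WDA group. In these 2 comparisons 0% of genes were called, and 0 members had an unadjusted p under 0.05, against 1 (*Marco*) in WT males. DESeq2 called 0 members in all 3.

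Combined over vectors and sexes, with 12 mice at each stage, *Marco* had a log2 fold change of 1.42 (SE 0.35, adjusted p = 0.003) and was called in each of the 24 fits without 1 mouse, where the value ranged from 1.23 to 1.70. The remaining members ranged from -0.11 (*Cd5l*) to 0.40 (*Vsig4*). Without mouse 7 of the WT WDA females, *Adgre1* (0.40) and *C1qa* (0.33) were called too. The median over the 10 members was 0.20, and over all genes tested 0.00.

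**Figure D3:**
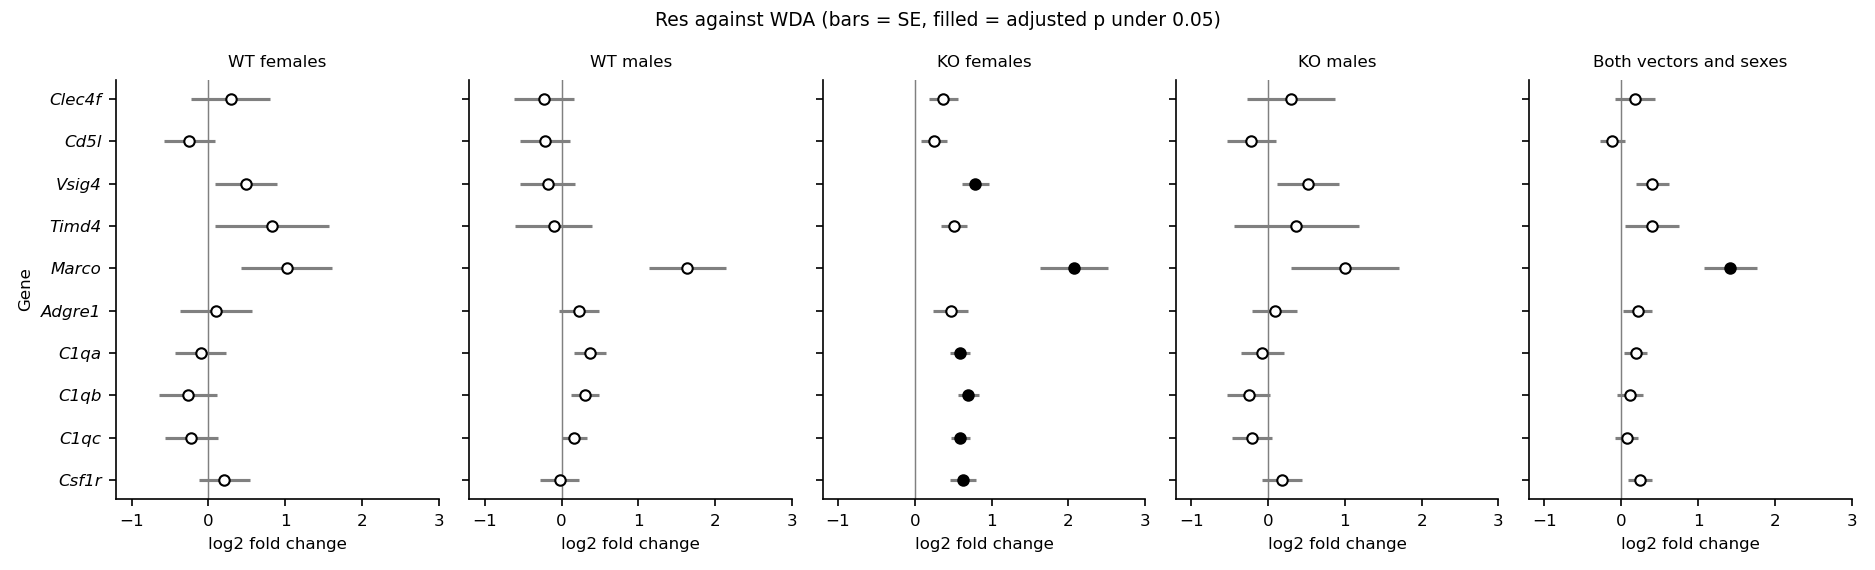
Log2 fold change of Res against WDA for the 10 members in WT and KO females and males and combined, with bars of 1 SE. Filled points passed an adjusted p of 0.05. They are 6 members in KO females and *Marco* alone in the combined fit, and the combined value of *Marco* is 1.42.

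The KO was compared with WT to ask whether loss of *Kdm5b* outside hepatocytes as well as in them goes with a different Kupffer cell programme. No member passed the test at either stage or in either sex, nor with the sexes combined, and 0% of genes were called in each of these 6 comparisons. DESeq2, run on the same counts, also called 0 of the 10 members in each. At an unadjusted p under 0.05 there were 3 members in Res females, 2 in WDA males and 0 in the remaining comparisons of KO with WT. The nearest to a difference was in Res females. *Clec4f* stood at 27, 91.7 and 98.2 CPM in WT and at 106, 118 and 139 CPM in KO Res females, a log2 fold change of 0.74 (SE 0.41, adjusted p = 0.35). *C1qc* stood at 56.7, 63.1 and 76.6 CPM in WT and at 80.7, 84.0 and 104 CPM in KO, a log2 fold change of 0.44 (SE 0.16, adjusted p = 0.19).

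In Res females the fold changes of all 10 members were positive, from 0.07 (*Adgre1*) to 0.84 (*Marco*), with a median of 0.44 against -0.02 over all genes, but that of *Adgre1* was -0.10 with library totals as scaling, a scaling that moved the median of all genes by -0.17. The 3 C1q chains had an unadjusted p under 0.05 and were higher, against 7.52% of genes tested. *Clec4f*, *Timd4* and the C1q chains, 5 of the 10, did not overlap between the groups, against 11.6% of genes. Without mouse 13, the WT Res female with low *Clec4f*, the log2 fold change was 0.35 for *Clec4f* and 0.32 for *Timd4*. Without mouse 2 of the KO Res females that of *Marco* was 0.01. In Res males the fold changes ran from 0.07 (*Cd5l*) to 0.39 (*Vsig4*), with no member at an unadjusted p under 0.05.

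On WDA the members went in different directions. In females *Timd4* stood at 1.15, 5.66 and 6.62 CPM in WT and at 7.72, 10.5 and 10.6 CPM in KO, with a log2 fold change of 1.09 (SE 0.54, adjusted p = 0.98), or 0.64 without mouse 7, and was the only member whose groups did not overlap, against 5.29% of genes. The C1q chains were at -0.52 to -0.31, with mouse 7 the highest of the WT mice. In males the C1q chains were at 0.50 to 0.65 and *Clec4f* at -0.38, with mouse 17 among the KO mice. *C1qa* and *C1qb*, 2 of the 10, had an unadjusted p under 0.05 in males, against 5.56% of genes higher at that level. Without mouse 17 the log2 fold change of *C1qa* in males was 0.31.

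**Figure D4:**
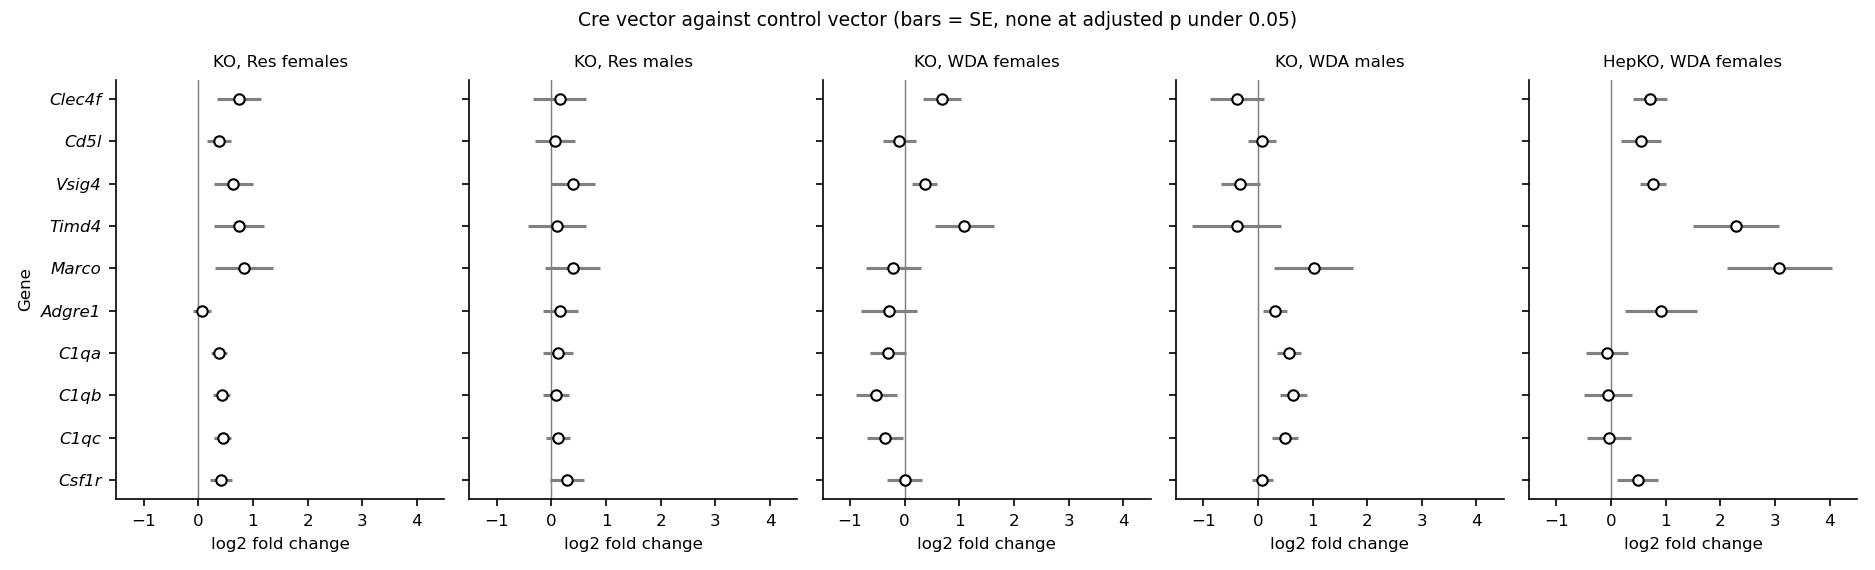
Log2 fold change of KO against WT in 4 groups, and of HepKO against WT in WDA females, for the 10 members, with bars of 1 SE. No point passed an adjusted p of 0.05. The largest values are those of *Marco* (3.08) and *Timd4* (2.29) in HepKO females.

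HepKO females on WDA were compared with WT and KO females on WDA. *Kdm5b* stood at 8.27 to 17.6 CPM in HepKO females and at 14.4 to 24.3 CPM in KO females, whose range overlapped that of WT. The comparison therefore cannot separate loss of *Kdm5b* in hepatocytes from loss in liver at large, as vector and extent of loss differ together. HepKO mouse 13 had the highest *Marco* and *Timd4* of the 27 mice. *Marco* stood at 150, 53.8 and 11.7 CPM in HepKO mice 13, 14 and 15, at 3.58, 5.73 and 15.5 CPM in WT and at 6.55, 7.55 and 8.15 CPM in KO females. *Timd4* stood at 40.1, 18 and 6.99 CPM in HepKO mice 13, 14 and 15, at 1.15, 5.66 and 6.62 CPM in WT and at 7.72, 10.5 and 10.6 CPM in KO females. Against WT the log2 fold changes were 3.08 (SE 0.96, adjusted p = 0.39) for *Marco* and 2.29 (SE 0.78, adjusted p = 0.42) for *Timd4*, so neither passed the test. Without HepKO mouse 13 they were 1.95 and 1.48.

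HepKO mouse 13, a different animal from WT Res female 13, was the highest of its group for 9 of the 10 members, and HepKO mouse 15 the lowest for all 10. In HepKO mouse 13 *Adgre1* was at 81.7 CPM, *Cd5l* at 334 CPM and *Csf1r* at 119 CPM, the highest values of the 27 mice for these genes. *Clec4f* did not share this spread and stood at 96.6, 103 and 89.3 CPM in HepKO mice 13, 14 and 15. WT mice 5, 6 and 7 had 67.6, 76.8 and 31.1 CPM, and its log2 fold change against WT was 0.71 (SE 0.31, adjusted p = 0.50), or 0.41 without WT mouse 7. *Spic*, a transcription factor of iron-recycling macrophages, and *Hmox1*, which degrades haem, followed the order of *Marco*: *Spic* stood at 9.03, 3.94 and 1.86 CPM in HepKO mice 13, 14 and 15 and at 0.894 to 1.5 CPM in WT females, and *Hmox1* at 90.2, 53.8 and 32.5 CPM and at 27.6 to 39.1 CPM. These 2 genes were picked out after their values were seen. Over the 27 libraries *Marco* and *Spic* had an r of 0.87 (rho 0.83), and 0.79 without the pair of mice farthest from the median of *Marco*.

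Against WT, 3 members had an unadjusted p under 0.05 and were higher (*Marco*, *Timd4* and *Vsig4*), against 4.81% of genes, and 3 did not overlap (*Clec4f*, *Vsig4* and *Timd4*), against 10.1%. No member was called, and 0% of genes were. Against KO females, 5 members had an unadjusted p under 0.05 and were higher, against 3.06% of genes, and *Marco* alone did not overlap, against 5.59%, with a log2 fold change of 3.28 (SE 0.73, adjusted p = 0.44). No member was called among 0.0162% of genes, and DESeq2 called 0 members in both comparisons. Without HepKO mouse 15 *Marco* was called against KO females, with a log2 fold change of 3.79 (adjusted p = 0.026). The monocyte markers summed to 169, 109 and 82.2 CPM in HepKO mice 13, 14 and 15, and their part was not tested.

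**Figure D5:**
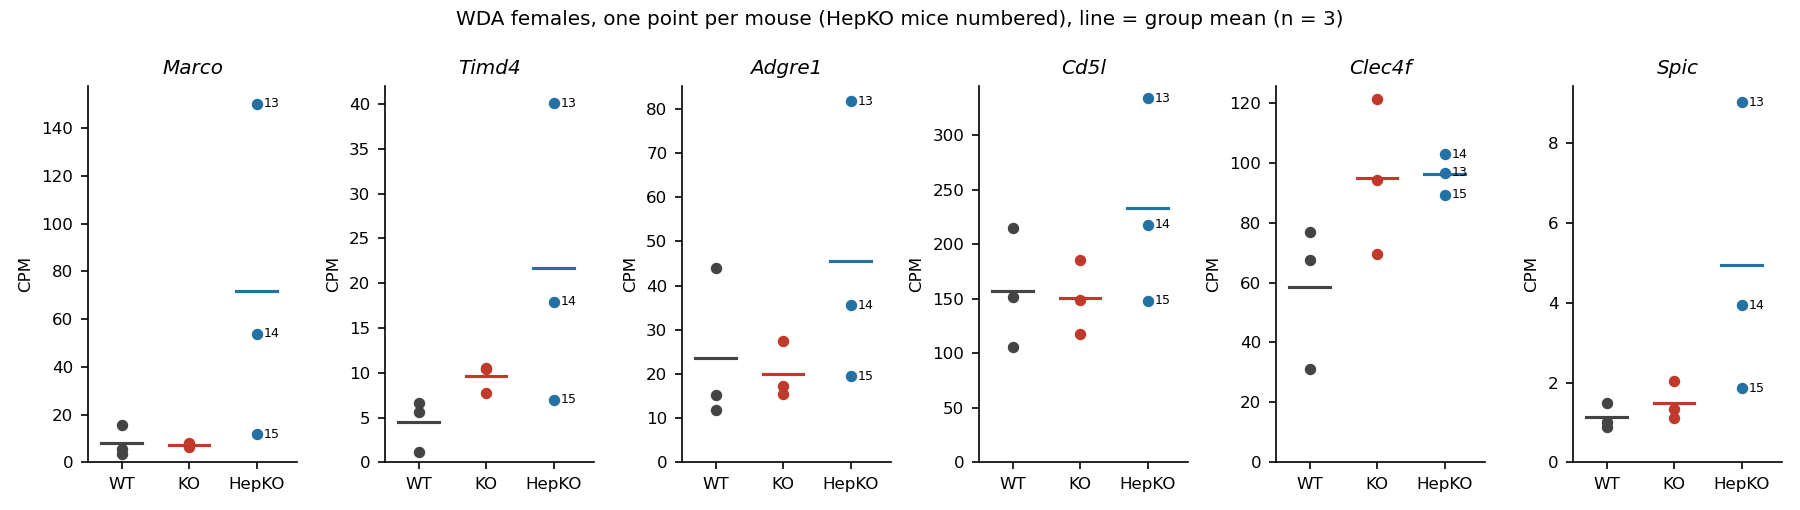
CPM of *Marco*, *Timd4*, *Adgre1*, *Cd5l*, *Clec4f* and *Spic* in WT, KO and HepKO females on WDA, one point per mouse with lines at the group means (n = 3). The HepKO mice keep the order 13, 14, 15 from high to low except for *Clec4f*, whose 3 HepKO values lie between 89.3 and 103 CPM.

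Between males and females no member passed the test. Over both vectors and stages 0 of the 10 members were called in edgeR or DESeq2, against 9.52% of genes, and 0 had an unadjusted p under 0.05. The largest difference was that of *Vsig4*, a gene on the X chromosome, at -0.36 in males against females (SE 0.21, adjusted p = 0.33). Without mouse 5 of the KO Res males it was -0.30. The difference of the KO effect between stages, that of the KO effect between sexes after resolution and that of the stage effect between sexes were tested as interactions. No member was called in any of them, in edgeR or DESeq2, and none had an unadjusted p under 0.05, with 0% of genes called in the first pair and 0.137% in the last. The largest values were 0.54 for *Vsig4* (KO by stage, SE 0.43), -0.66 for *Timd4* (KO by sex after resolution, SE 0.80) and -0.55 for *Timd4* (stage by sex, SE 0.72). The 6 calls in KO females are therefore not shown to be particular to KO mice or to females.

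Other Kupffer cell genes were read from a list of 22. In KO females 2 of the 22 rose after resolution, against 10.2% of all genes, namely *C6*, a complement component also made by Kupffer cells (0.95, SE 0.18), and *Clec1b*, which encodes the podoplanin receptor CLEC-2 (0.71, SE 0.15), with a list median of 0.35. In the combined fit 5 of 22 rose, against 14% of all genes, those with the largest values being the potassium channel *Kcna2* (0.88), *C6* (0.70) and *Mertk* (0.50), a receptor for dying cells. In WT males *Cd207*, which encodes langerin, rose (1.10) and *Hpgd*, a prostaglandin dehydrogenase, fell by 0.87 on the log2 scale. *C6* was higher in males than in females by 2.94 (SE 0.18, adjusted p = 1.7e-10). With the spread shared by all groups, the calls of *C6* and *Clec1b* in KO females and of *Cd207* and *Hpgd* in WT males were lost. In the remaining comparisons 0 of the 22 were called by edgeR, with 0 to 7 at an unadjusted p under 0.05. The 7 were in HepKO against WT, where 10.1% of all genes were at that level. DESeq2 called *Kcna2* in HepKO against WT and *C6* in WT females after resolution.

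Of 12 transcription factors of Kupffer cells, 4 rose in KO females after resolution, where 10.2% of all genes did. They included *Irf8* (1.05), which directs monocyte and macrophage development, and *Spic* (0.999), and the list median was 0.31. *Irf8* (0.77) and *Smad4* (0.42), the shared mediator of TGF-β and BMP signals, rose in WT males, and *Spic* (0.82) and *Smad4* (0.37) in the combined fit. *Id1* and *Id3*, targets of BMP signals, were lower in males than in females, at -0.96 and -0.78. Of 8 niche signals, 3 rose in KO females, against the same 10.2%: *Bmp10* (1.27), a ligand from stellate cells, *Tgfb1* (0.62) and *Bmp6* (0.59), a ligand from sinusoidal endothelium. *Bmp6* (0.37) also rose in the combined fit, *Csf1* (0.62), the ligand of the receptor encoded by *Csf1r*, rose in WT males, and *Il34*, its other ligand, was lower in males than in females, at -0.58. With the spread shared by all groups, none of these calls in KO females or WT males held. That of *Bmp6* in KO females was also lost with DESeq2 (adjusted p = 0.057). Of the 6 fits of KO females without 1 mouse, the calls held in 1 for *Spic* and *Bmp6*, in 2 for *Tgfb1* and in 4 for *Bmp10*, and of the 6 such fits of WT males in 1 for *Cd207* and *Smad4* and in 2 for *Hpgd*, *Irf8* and *Csf1*.

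The C1q chains work with a set of complement partners made mostly by hepatocytes. Of 25 complement partners and receptors, 1 rose and 3 fell in KO females after resolution, with a median of 0.06, where 20.4% of all genes were called. *C3*, the central component, rose (0.74), a call that held in 2 of the 6 fits without 1 mouse (adjusted p up to 0.075), whereas *Cfd*, the adipsin gene, fell by 2.35 and *C1rl* fell by 0.73. In the combined fit 4 rose and 4 fell, where 30.2% of all genes were called. Those that changed included *C3* (0.58), *Cfd* (-3.25) and *Cd59a* (-0.50). In males 8 of the 25 were higher than in females, against 9.52% of all genes called in either direction. The largest values were those of *Cfd* (4.70), *C8a* (2.01) and *C8b* (1.82). Of 14 efferocytosis genes tested in KO females, *Gas6*, a bridging ligand of MERTK, fell by 1.13, and in the combined fit *Stab1* (0.50), *Mertk* (0.50) and *Pros1* (0.23) rose. In WT males 1 complement gene rose and 4 fell after resolution, where 11% of all genes were called. The largest values were those of *Cfd* (-4.70), *C1rl* (-0.69) and *Cd59a* (-0.60). The scavenger receptor *Cd36* was lower in males than in females (-0.83). In all comparisons of KO or HepKO with another vector, 0 genes of these lists were called by edgeR, with 2 to 16 at an unadjusted p under 0.05 in a comparison, the 16 being in HepKO against WT. Of all genes tested, 10.1% were at that level in HepKO against WT. Over these comparisons that share ran from 1.45% (Res males) to 19.2% (Res females). DESeq2 calls included *Spic*, *Kcna2* and *Cfd* in HepKO against WT, *Cfd* in HepKO against KO, *Gas6* and *Scarf1* in KO against WT Res females, *Id3* in WDA males and *Cd36* in both sexes on WDA. With the spread shared by all groups, the calls of *Cfd* and *Gas6* in KO females were lost, as were those of *C1rl* and *Cd59a* in WT males.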

How the data were processed

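RNA-seq was carried out on whole liver of 27 mice. The authors aligned reads with HISAT and Bowtie2 to GRCm38.p6, and the tool that made the counts is not given in the sources used here. The deposited tables hold expected counts and FPKM per gene and mouse, and 7.71% of the expected counts are not whole, so they were rounded before testing. A total of 0 columns belonged to no sample. Groups were taken from the labels.

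Genes were filtered with filterByExpr (minimum count 10), scaled by TMM and tested with edgeR 4.0.16 (glmQLFit, glmQLFTest; R 4.3.3, limma 3.58.1), with Benjamini-Hochberg adjustment over all genes in each of 17 comparisons. CPM per mouse used TMM factors over all libraries, and correlations used log2 CPM with a prior count of 2. FPKM served only to compare genes with each other. Sex was a covariate where sexes were combined. Scripts were tested on simulated data. Alternatives were RLE scaling, library totals, no filter, DESeq2 1.42.0, a spread shared by all groups, the mouse number as a block, and 192 fits leaving out 1 mouse.

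The members and the 15 other lists were chosen with earlier results of these data known. Named genes were all 10 members, and from each other list every called gene where 3 or fewer were called, otherwise the 3 with the largest change, and the 5 genes most like *Clec4f* and *C1qa*. *Cd163*, *Trem2*, *Ccr2*, *Epcam*, *Hmox1*, *A1bg* and *Ddx3y*, and genes called by DESeq2 alone, were added after their values were seen. Mouse numbers repeat between experiments and do not mark the same mouse. With 3 mice against 3, an exact two-sided permutation test cannot go below 0.10. The p-values weigh a difference between groups against the spread between these mice, and they take no account of a difference between the experiments. Some named-gene results are not reported here.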

Additional observations from a re-analysis of the deposited data

How the results depend on the processing

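The count of members called was within 1.5 times the reported one in all 17 comparisons under RLE scaling, library totals, no filter and DESeq2, and in 16 with a spread shared by all groups. The exception was Res against WDA in KO females, where the shared spread gave 0 in place of 6. The cause was not tested. Outside KO females and the combined fit of Res against WDA, the reported count was 0, so an equal count there says little about how firm the results are. Leaving out 1 mouse at a time gave 3 to 7 called members in KO females, 1 to 3 in the combined stage comparison, 0 to 3 in WT males and 0 to 1 for HepKO against KO. With the mouse number as a replicate block, which numbers 2 and 3 allow in KO females alone, 6 members were called, while *Clec1b* (adjusted p = 0.051), *Spic* (0.058) and *Bmp6* (0.15) lost their calls. Numbers 2 and 3 do not mark the same mouse in both experiments, so this block has no basis in the design. The calls kept or lost with it do not bear on how firm the result is. *Adgre1* in KO against WT Res females was -0.10 with library totals and -0.12 to 0.18 when 1 mouse was left out. *Marco* in KO against WT WDA males was -0.11 to 1.57 when 1 mouse was left out. Among 85 log2 fold changes, 1 lost its call with DESeq2, 2 with library totals, and 21 with the shared spread. Library totals moved the median of all genes by -0.17 in KO against WT Res females and by 0.21 in WDA males. The lowest member count was 17 (*Timd4*), so counting error adds most there.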

Other observations

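Lists of other cells were read beside the Kupffer cell genes in the comparison of Res with WDA over both vectors and sexes. Of all genes tested there, 30.2% were called, 14% were called higher and 40.8% had an unadjusted p under 0.05. The counts below are to be read beside these shares. Among the B cell markers, *Jchain* (2.40) and *Cd79b* (0.83) rose. Of 8 T and NK cell markers 5 rose, led by *Cd8a* (1.63), *Cd3e* (1.30) and *Gzma* (1.15), and of 5 neutrophil markers 3 rose, *S100a9* (1.51), *S100a8* (1.49) and *Cxcr2* (0.97). Of 7 dendritic cell markers 1 rose, *Clec9a* (0.49). Of 9 sinusoidal endothelial markers 2 rose, *Lyve1* (0.59) and *Pecam1* (0.28), and *Gpr182* fell by 0.48. Of 12 scar-associated macrophage markers 1 fell, *Ctsd* (-0.35), with a median of -0.31 over the list. In the stellate and matrix list *Colec11* fell by 0.20, in the hepatocyte list *Alb* rose (0.47), and in the monocyte and cholangiocyte lists 0 genes were called by edgeR, with 2 and 0 at an unadjusted p under 0.05. DESeq2 called 1 monocyte gene, *Chil3*.

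In KO females alone, 2 scar-associated markers rose, *Itgax* (2.04) and *Trem2* (1.85), and 3 fell, the largest change among them being that of *Lpl* (-0.93). Of all genes tested in KO females, 20.4% were called. *Trem2* stood at 0.233 to 0.662 CPM on WDA and at 1.10 to 1.55 CPM after resolution in these mice.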
